A study of Mus musculus with 6 samples.

Results

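Fabp5, Fabp4 and 7 further genes of fatty acid handling (Cd36, Lpl, Plin2, Plin1, Cidec, Pparg and Adipoq) were followed through cultured mouse pancreatic acini, the clusters of enzyme-secreting cells of the exocrine pancreas. The 9 genes were chosen by name from 56953 genes in the count table, and each name had 1 row. They were picked with earlier results of these libraries in view, namely the levels of adipocyte markers in all 3 group comparisons and the sequence match between Fabp5 and the processed pseudogene Gm6166. Their values below therefore describe the libraries and are not independent evidence of a direction.

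Acini were embedded in Matrigel, a basement membrane gel, and kept for 3 days in an ex vivo assay of acinar-to-ductal metaplasia (ADM), the change of acini into duct-like structures. All groups shared Waymouth medium with 10% serum, penicillin and streptomycin, trypsin inhibitor and 10 µg/ml dexamethasone, a glucocorticoid. WT acini were untreated and wild type, from a male aged 10 weeks (replicate 1) and a female aged 11 weeks (replicate 2). DD acini were untreated and Dkk3-null, from males aged 12 and 13 weeks, and DD + rDKK3 acini were Dkk3-null acini given soluble recombinant DKK3, from males aged 14 and 15 weeks. DKK3 is a secreted glycoprotein, and the null allele lost the exon that encodes its secretion signal, so an isoform that stays inside the cell could still be made. Each group had 2 bulk RNA-seq libraries, whose labels differ in age, and in WT also in sex, but name no animal or culture. SDs and tests measure the spread between these libraries. Labelled age rose with group, and the 2 cannot be told apart.

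Fatty acid binding proteins are small cytosolic carriers of fatty acids. Lipoprotein lipase, the product of Lpl, frees fatty acids from circulating lipoproteins, CD36 helps to take them up, and perilipins and CIDE proteins coat lipid droplets and control their breakdown and fusion. PPARγ, encoded by Pparg, is a nuclear receptor for fatty acids that drives fat cell formation, and Fabp4, Lpl, Cd36, Plin1, Cidec and Adipoq are among its known targets in fat. Mature adipocytes make FABP4, adiponectin, perilipin 1 and CIDEC, whereas FABP5 is also found in epithelia, FABP4 and CD36 in capillary endothelium and macrophages, and perilipin 2 on lipid droplets of most cells.

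Library totals ranged from 12018473 to 19750401 counts. Counts were scaled by TMM and are given as CPM, counts scaled to a common library depth. Dkk3 had 10 and 1 counts in WT against 11 and 9 in DD, with 5 and 5 after rDKK3, so its gene-level count did not separate the genotypes. Acinar markers such as the chymotrypsinogen Ctrb1 summed to between 74180 and 130200 CPM, and ductal markers such as the keratin Krt8 to between 4314 and 6192 CPM. Replicate 2 of DD and of DD + rDKK3 stood apart by fibroblast and stellate markers, which summed to 898 and 1030 CPM there and to between 56.3 and 184 CPM in the other 4 libraries (led by Col1a1, Col1a2 and Col3a1). The sum of macrophage markers was also highest in these libraries, at 275 and 215 CPM against 60.8 to 145 CPM. Of the most abundant, Lyz2 was highest there, but Cd68 and C1qa were not highest in both. Cd68 stood at 36.8 CPM in DD replicate 2 and at 40.3 CPM in DD replicate 1. C1qa stood at 19.55 CPM in WT replicate 1 and at 18.3 CPM in DD + rDKK3 replicate 2. In bulk RNA, fewer cells of a type and less RNA per cell cannot be told apart.

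Fabp5 (ENSMUSG00000027533.11) lies on the plus strand of chromosome 3, from 10077608 to 10081667 in GRCm39. Its mRNA has near-identical processed copies elsewhere in the genome, and the bases that separate it from the most abundant one decide where a short read can be placed. Gm6166 (ENSMUSG00000074280.7, plus strand of chromosome 9, 57391246 to 57391654) matched bases 99 to 505 of the Fabp5 mRNA, a stretch within the coding sequence, at 98.3% of 409 aligned positions. There were 5 substitutions and 2 bases that only Gm6166 holds. In the pairs that follow, all from the GRCm39 reference and in the sense direction, capitals mark the bases that differ. A substitution is written as the Fabp5 base, the position counted from the first base of Gm6166, and the Gm6166 base.

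The first pair holds T9C.
Fabp5: atggccagTcttaaggatctc
Gm6166: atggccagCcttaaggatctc
The second pair holds T189C.
Fabp5: agtgaagacgacTgtgttctcttgt
Gm6166: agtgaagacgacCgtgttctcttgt
The third pair holds C263T together with the 2 extra bases of Gm6166 at its positions 259 and 260.
Fabp5: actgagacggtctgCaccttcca
Gm6166: actgagacggtcTGtgTaccttcca
The fourth pair holds G343C.
Fabp5: aactgaaggatgGgaagatgatcgt
Gm6166: aactgaaggatgCgaagatgatcgt
The fifth pair holds T395C.
Fabp5: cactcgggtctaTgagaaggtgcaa
Gm6166: cactcgggtctaCgagaaggtgcaa

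Reads were 50 bases from each end. Of the 360 windows of that length in Gm6166, 184 (51.1%) occurred unchanged in the Fabp5 mRNA, and the longest identical run was 179 bases. At least 1 differing base therefore fell in the remaining windows. In the annotation used for this match, the spans of a lncRNA, Gm51707, and a second pseudogene, Gm18103, overlap Gm6166 on the same strand. Overlap of their exons was not checked, and the counts used an earlier annotation. Any effect on the reads placed there was therefore not tested. Gm14328 (97.3% identical), Fabp5l2 (94.1%), Gm13998 (94.0%) and Gm6100 (93.6%) are further copies, and each had between 0 and 2 counts in every library. No other member had a copy of at least 300 aligned bases and 90% identity in the table.

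Fabp5, the epidermal type fatty acid binding protein, had the largest contrast between groups among the abundant members. It stood at 133 and 112 CPM in WT, at 207 and 310 CPM in DD and at 108 and 158 CPM in DD + rDKK3. Both DD libraries lay above all 4 others, and the WT and DD + rDKK3 libraries overlapped. The means were 123 ± 15.0, 259 ± 73.2 and 133 ± 34.8 CPM (SD, n = 2 each). DD was 2.11-fold WT by fit (log2 difference 1.08, SE 0.262), DD + rDKK3 was 1.95-fold lower than DD (-0.96, SE 0.261), and DD + rDKK3 differed from WT by 0.12 (SE 0.260). The DD and DD + rDKK3 libraries of the same number gave ratios of 0.524 and 0.508, although the labels name no shared animal. With both second Dkk3-null libraries left out, the log2 differences were 0.75, -0.93 and -0.17, so the last changed its sign. Reads of mesothelial markers, mostly Msln, were also highest in both DD libraries (14.9 and 34.9 CPM against 8.43 to 13.8 CPM elsewhere). Their part in the Fabp5 level was not tested. Without DD replicate 2 alone, DD + rDKK3 differed from DD by -0.64.

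Gm6166 moved in the other direction between genotypes. It had 213 and 259 counts in WT, against 8 and 11 in DD and then 0 and 4 in DD + rDKK3, that is 20.9 and 18.2 CPM, then 0.379 and 0.647 CPM, then 0 and 0.215 CPM. The WT libraries stood far above all 4 null libraries. The pseudogene was called in DD against WT by edgeR (log2 difference -5.26, SE 0.514, adjusted p 0.0246), as it was between DD + rDKK3 and WT (-7.42, SE 0.625, adjusted p 0.0126). Gm6166 passed the filter on low counts only through the WT libraries, where it was high. It was also 1 of the values that led to Fabp5. These calls are therefore restated for context and only describe the libraries.

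The 5 copies together took 13.6% and 14.1% of the reads of Fabp5 and its copies in WT, against 0.228% and 0.246% in DD and then 0.0487% and 0.17% in DD + rDKK3. Their sum was 19.7 ± 1.90 CPM in WT and 0.619 ± 0.206 CPM in DD, a difference of -19.1 CPM, whereas Fabp5 alone differed by 136 CPM in the other direction. Adding the copies to Fabp5 gave 154 and 130 CPM in WT, 207 and 311 CPM in DD, and 108 and 158 CPM in DD + rDKK3. The DD libraries remained above the other 4. The summed log2 difference of DD from WT was 0.87 (SE 0.261), a 1.82-fold difference, and that of DD + rDKK3 from DD was -0.96 (SE 0.261). Against WT the DD + rDKK3 sum had the opposite sign from Fabp5 alone (-0.10, SE 0.260).

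**Figure D1:**
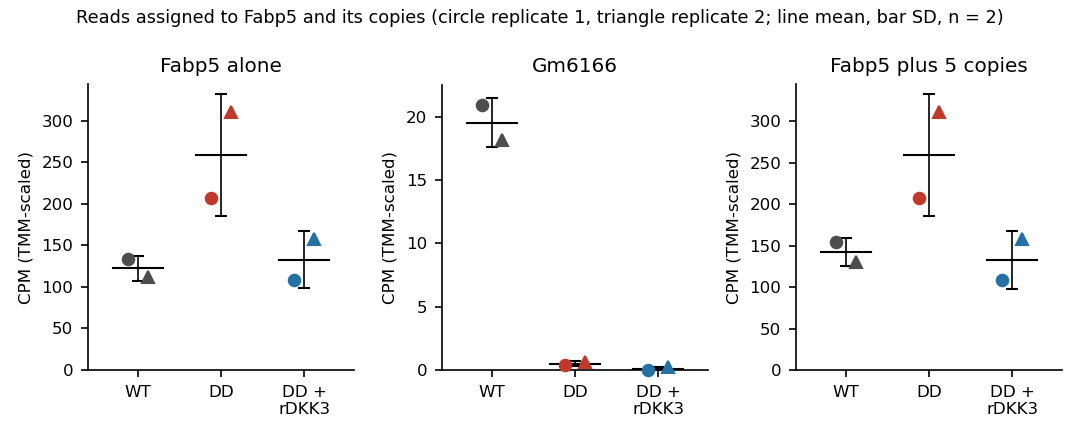
CPM of Fabp5 alone, of Gm6166 and of Fabp5 summed with its 5 copies (panels, each with its own vertical axis from 0) in WT, DD and DD + rDKK3; circles are replicate 1, triangles replicate 2, lines the mean and bars the SD (n = 2). Both DD libraries lie highest for Fabp5 with and without the copies, and Gm6166 is near 0 in all 4 null libraries.

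Fabp4 (ENSMUSG00000062515.4, minus strand of chromosome 3, 10269148 to 10273636) lies 187480 bases from Fabp5 and encodes the fatty acid binding protein of adipocytes, endothelium and macrophages. It stood at 126 and 103 CPM in WT, at 80.1 and 185 CPM in DD and at 74.7 and 65.9 CPM in DD + rDKK3. DD replicate 2 was the highest library and DD replicate 1 lay below both WT libraries, so WT and DD overlapped. Both DD + rDKK3 libraries lay below all 4 others. The means were 114 ± 16.1, 132 ± 73.8 and 70.3 ± 6.22 CPM (SD, n = 2 each). DD differed from WT by 0.21 on the log2 scale (SE 0.347), and by -0.51 without DD replicate 2. DD + rDKK3 differed from DD by -0.91 (SE 0.349), a value of -0.19 without DD replicate 2 and of -1.41 without DD replicate 1, and from WT by -0.70 (SE 0.349).

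The other genes of the Fabp cluster had few or no reads. Pmp2, the myelin fatty acid binding protein, and Fabp9, the testis form, had 0 counts in all 6 libraries, and Fabp12 had 0 or 1. Myef2l, which lies between Fabp5 and Fabp4, had 2 to 17 counts. Impa1, the inositol monophosphatase gene next to the cluster, had 374 to 841.

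**Figure D2:**
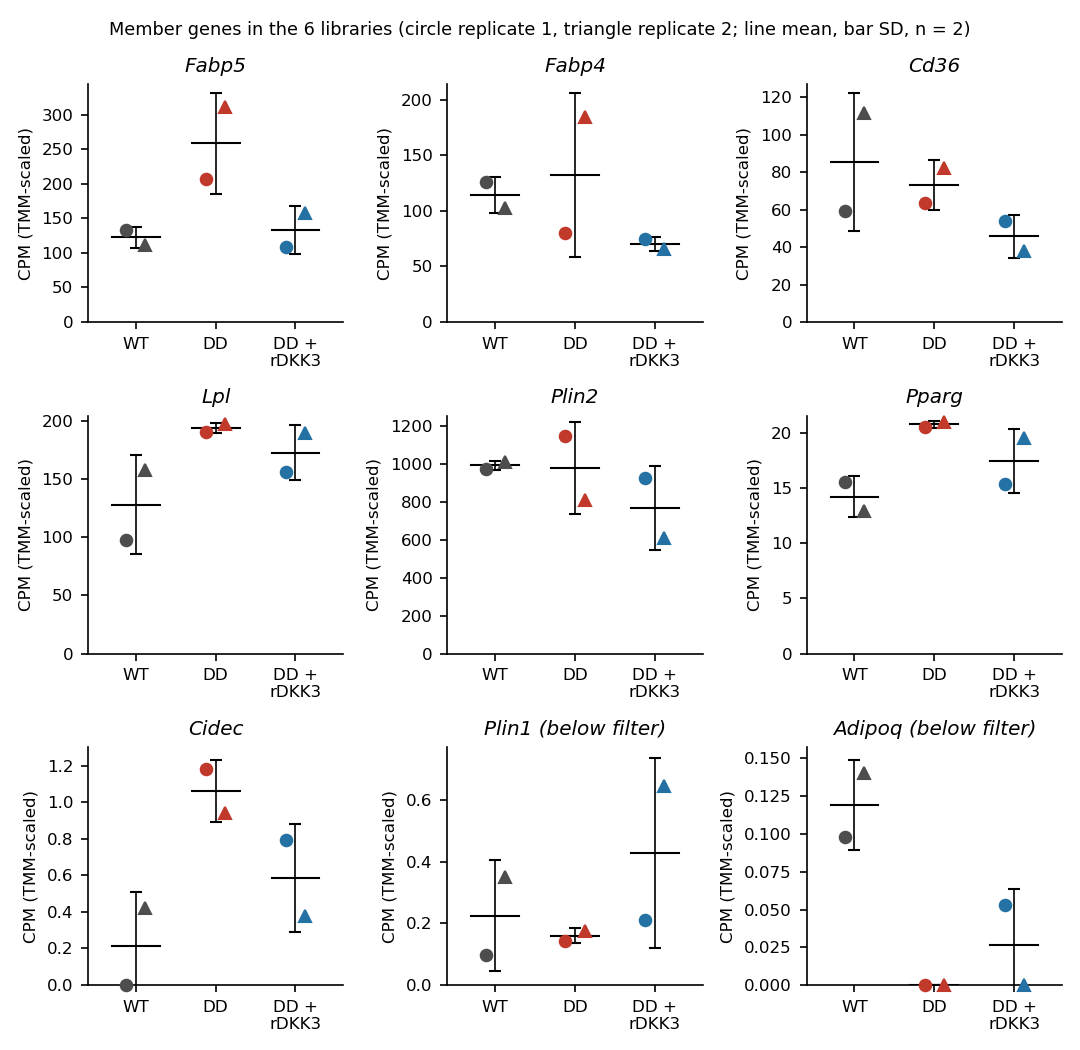
CPM of the 9 genes (panels, each with its own vertical axis from 0) in WT, DD and DD + rDKK3; circles are replicate 1, triangles replicate 2, lines the mean and bars the SD (n = 2). Fabp5 is highest in both DD libraries, Fabp4 and Cd36 are lowest in both DD + rDKK3 libraries, and Cidec, Plin1 and Adipoq stay near or below 1 CPM.

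Cd36 (minus strand of chromosome 5, 17986688 to 18093799), the fatty acid translocase and scavenger receptor, stood at 59.3 and 112 CPM in WT, at 63.7 and 82.4 CPM in DD and at 53.8 and 37.6 CPM in DD + rDKK3. The DD libraries lay within the WT range, and the DD + rDKK3 libraries lay below all others. The means were 85.4 ± 36.9, 73.0 ± 13.2 and 45.7 ± 11.4 CPM (SD, n = 2 each). The log2 differences were -0.23 (SE 0.312) for DD against WT, -0.68 (SE 0.314) for DD + rDKK3 against DD and -0.91 (SE 0.315) for DD + rDKK3 against WT. WT replicate 2 was the highest library, and without it these values were 0.30 for DD against WT and -0.37 for DD + rDKK3 against WT.

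Lpl (plus strand of chromosome 8, 69333143 to 69360100) encodes the lipase that acts on lipoproteins at the vessel wall. It stood at 98.0 and 158 CPM in WT, at 191 and 197 CPM in DD and at 156 and 190 CPM in DD + rDKK3. WT replicate 1 was the lowest library, and both DD libraries lay above the other 4. The means were 128 ± 42.4, 194 ± 4.65 and 173 ± 23.8 CPM (SD, n = 2 each). DD was 1.51-fold WT (log2 difference 0.60, SE 0.240), a value of 0.99 without WT replicate 2 and of 0.31 without WT replicate 1. DD + rDKK3 differed from DD by -0.17 (SE 0.239) and from WT by 0.43 (SE 0.240).

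Plin2 (minus strand of chromosome 4, 86566623 to 86588297), the perilipin that coats lipid droplets in most cell types, was the most abundant member and ranked 105 of 14738 genes tested by mean CPM. It stood at 974.8 and 1009 CPM in WT, at 1148 and 808 CPM in DD and at 924 and 611 CPM in DD + rDKK3. The DD libraries lay on both sides of WT, and both DD + rDKK3 libraries lay below WT. The means were 992 ± 23.9, 978 ± 240 and 768 ± 222 CPM (SD, n = 2 each), and the log2 differences of -0.02 (SE 0.259), -0.35 (SE 0.260) and -0.37 (SE 0.260) were within 1.5 SE of 0. Plin2 was lower in replicate 2 than in replicate 1 of both null groups, the libraries with the most fibroblast and macrophage marker reads, and the part of those cells in its level was not tested.

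Pparg (plus strand of chromosome 6, 115337912 to 115467360), the nuclear receptor, stood at 15.5 and 12.9 CPM in WT, at 20.5 and 21.0 CPM in DD and at 15.4 and 19.5 CPM in DD + rDKK3. Both DD libraries lay above the other 4, and WT and DD + rDKK3 overlapped. DD was 1.46-fold WT (log2 difference 0.55, SE 0.192), and DD + rDKK3 differed from DD by -0.25 (SE 0.188) and from WT by 0.30 (SE 0.192). The order DD, DD + rDKK3, WT by mean was the same as for Fabp5 and Lpl, but the DD + rDKK3 and WT libraries overlapped for all 3 genes.

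The remaining members mark mature fat cells and had few counts. Cidec (minus strand of chromosome 6, 113401595 to 113412721), which drives the fusion of lipid droplets, had 0 and 6 counts in WT, against 25 and 16 in DD and then 15 and 7 in DD + rDKK3. Its means were 0.211, 1.06 and 0.584 CPM, and it passed the filter on low counts through the null libraries. The fitted log2 difference of DD from WT was 2.14 (SE 0.905), and 1.34 without WT replicate 1, the library with 0 counts, for which 3 counts allow up to 0.295 CPM. Without WT replicate 2 the WT arm was at 0 counts, and its fold is not given. DD + rDKK3 differed from DD by -0.86 (SE 0.762).

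Plin1 (minus strand of chromosome 7, 79369966 to 79382651), the perilipin of adipocyte droplets, had 1 and 5 counts in WT, against 3 and 3 in DD and then 4 and 12 in DD + rDKK3. It did not pass the filter, and no library was above 0.645 CPM (exact 95% Poisson interval 0.333 to 1.13 for 12 counts). Without the filter its log2 differences were -0.53 (SE 0.998), 1.39 (SE 0.878) and 0.86 (SE 0.890) in the order in which the comparisons were given above. Adipoq (plus strand of chromosome 16, 22965286 to 22976778), which encodes the fat cell hormone adiponectin, had 1 and 2 counts in WT, against 0 and 0 in DD and then 1 and 0 in DD + rDKK3. All 3 groups were at or under the floor of 3 counts per library, and no fold is given. At these depths 3 counts equalled 0.142 to 0.295 CPM, and such floors and intervals cover counting error only.

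Genes can be compared with each other only per length of transcript. As mean CPM per kilobase of the canonical transcript, Plin2 led in every group at 484 (WT), 477 (DD) and 374 (DD + rDKK3). Fabp5 followed at 124, 260 and 134, then Fabp4 at 84.0, 97.3 and 51.7, Lpl at 31.1, 47.2 and 42.0, Cd36 at 24.4, 20.8 and 13.0, and Pparg at 5.19, 7.58 and 6.37. Cidec was at 0.0736, 0.371 and 0.204, Plin1 at 0.0749, 0.0531 and 0.143, and Adipoq at 0.0902, 0 and 0.0199. The last 3 did not keep an order between groups. Among the genes tested, Fabp5 ranked 718, Lpl 751, Fabp4 1261, Cd36 2147, Pparg 6538 and Cidec 14130 of 14738 by mean CPM, which is not adjusted for length.

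**Figure D3:**
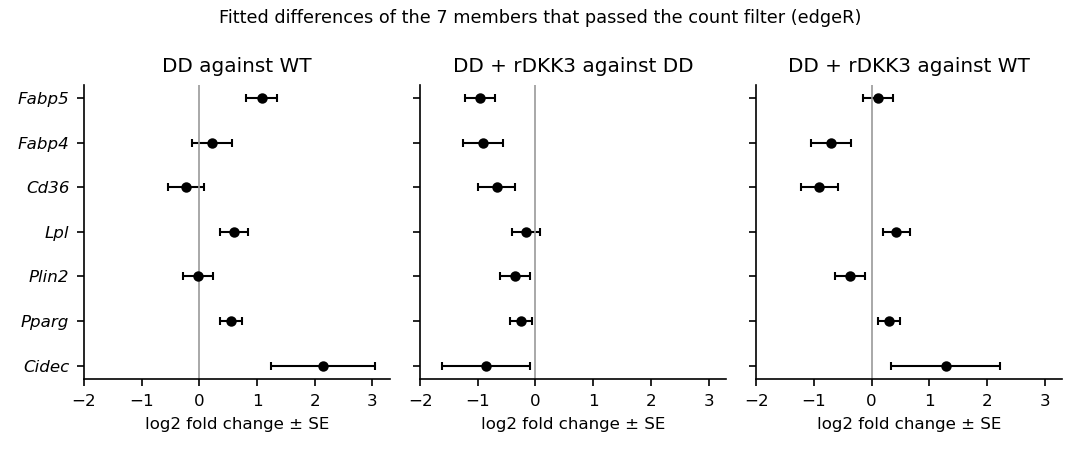
Fitted log2 fold change with its SE (horizontal axis) for the 7 genes that passed the filter on low counts (rows) in the 3 comparisons (panels). Fabp5 lies at 1.08 for DD against WT and at -0.96 for DD + rDKK3 against DD, and Cidec, with 0 to 25 counts a library, has the widest error.

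Across all genes tested, edgeR called few genes at an adjusted p under 0.05, and none of the 7 members that passed the filter was among them. In DD against WT, 6 of 14738 genes (0.0407%) were called and 0 of 7 members. Fabp5 had an unadjusted p of 0.00376 and an adjusted p of 0.555 there by edgeR. At an unadjusted p under 0.05, 3 members were higher in DD (Fabp5, Pparg and Lpl), beside 4.27% of all genes in that direction and 8.26% in either direction. Cidec was also under it, but it passed the filter only through null libraries, where it was high, and is not counted. In the same 3 members the DD and WT libraries did not overlap, as in 18.1% of all genes in that direction and 37.8% in either. By DESeq2, 0.522% of genes were called and 1 of 7 members, Fabp5 (adjusted p 0.0143), and by limma-voom 0.0543% of genes and 0 members. With the copies summed into Fabp5 its DESeq2 adjusted p was 0.130, so that call did not hold for the sum.

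In DD + rDKK3 against DD, edgeR called 0% of genes and 0 of 7 members. Its unadjusted p was under 0.05 for 1.98% of all genes and 1.38% in the downward direction, and for 2 members, both lower, Fabp5 (0.00676) and Fabp4 (0.0326), of 7 tested. The DD + rDKK3 libraries lay below the DD libraries for 5 members (Fabp5, Fabp4, Cd36, Lpl and Pparg), with Cidec again left out, beside 14.4% of all genes in that direction and 29.5% in either. For Lpl and Pparg the nearest libraries of the 2 groups were within counting error of each other. DESeq2 called 0.0775% of 6452 genes with an adjusted p and 0 of 5 such members, with Fabp5 at an adjusted p of 0.104, and limma-voom called 0 genes.

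In DD + rDKK3 against WT, edgeR called 7 genes (0.0475%) and 0 members. At an unadjusted p under 0.05, Cd36 was lower (1 of 7 members, p 0.0218 by edgeR), beside 15.3% of all genes in either direction (1179 lower and 1082 higher). Fabp4, Cd36 and Plin2 lay below both WT libraries without overlap, as did 27.1% of all genes, and 55.0% in either direction. DESeq2 called 1.09% of 5595 genes with an adjusted p and 0 of 5 such members (Pparg and Cidec had none), and limma-voom called 0.0204% of 14738 genes and 0 of 7 members. The 3 comparisons share libraries, so none is a repeat of another, and since the members were chosen with them known, nothing is read from these shares.

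**Figure D4:**
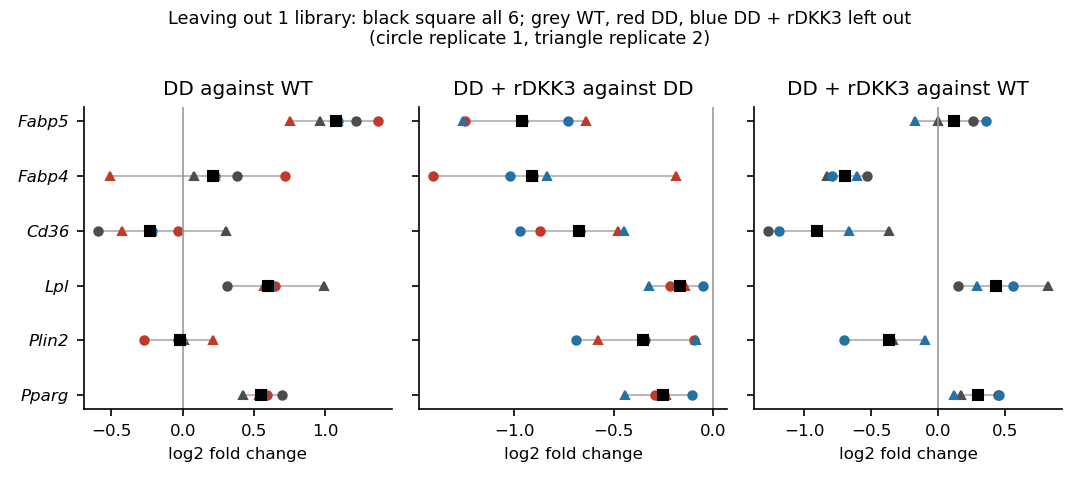
Fitted log2 fold change (horizontal axis, 1 panel per comparison) of 6 members with all 6 libraries (black squares) and with each library left out in turn (colour gives the group of the library left out, circles replicate 1 and triangles replicate 2). Fabp5 stays above 0.75 in DD against WT and at or below -0.637 in DD + rDKK3 against DD, whereas Fabp4 crosses 0 in DD against WT when DD replicate 2 is left out.

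The wider pathway was described with 7 lists of 136 genes outside the members, of which 105 passed the filter. None of the 105 was called by edgeR in any comparison. At an unadjusted p under 0.05 there were 16, 6 and 20 of the 105 in the 3 comparisons, beside 8.26%, 1.98% and 15.3% of all genes. The 16 and the 6 include Fabp2, which passed the filter only through null libraries, where it was high. Nothing is read from these counts. DESeq2 called Dgat2 in DD against WT and 2 genes, Hilpda among them, in DD + rDKK3 against WT. The median log2 difference over all 14738 genes was 0.02, -0.003 and 0.02 in the 3 comparisons.

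Other fatty acid and retinoid binding proteins were mostly silent, with 6 of 14 genes tested and 4 at 0 counts in all libraries. Their median log2 difference by edgeR was 0.30 in DD against WT and -0.36 in DD + rDKK3 against DD, with 0 of 6 higher in the latter. By limma-voom the first of these medians was -0.000989. Fabp2, the intestinal form, had 1 and 7 counts in WT, against 28 and 33 in DD and then 12 and 10 in DD + rDKK3. Like Cidec, Fabp2 passed the filter only through null libraries, so its differences and its part in the list medians only describe these libraries. Its DD libraries lay above all others, with log2 differences of 2.34 (SE 0.647, adjusted p 0.586 by edgeR) and -1.46 (SE 0.569, adjusted p 1). Rbp2, the intestinal retinol carrier, stood at 1.77 and 1.90 CPM in WT, 2.22 and 2.00 CPM in DD, and 1.22 and 1.78 CPM in DD + rDKK3. Dbi, the acyl-CoA binding protein, was the most abundant of the list at 175 to 259 CPM, and it was chosen for naming after its values were seen.

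Of 19 other adipocyte genes, 10 were tested, and their medians were 0.12 in DD against WT and 0.07 in DD + rDKK3 against DD. Lep, Retn, Adrb3, Ucp1 and Adig, named for their low counts, had at most 3 counts in any library. Plin4, a perilipin of fat and muscle, stood at 9.14 and 13.5 CPM in WT, 18.6 and 17.0 CPM in DD, and 19.2 and 21.9 CPM in DD + rDKK3. Both null groups lay above WT (0.65, SE 0.220, adjusted p 0.586 by edgeR for DD). Cidea, a droplet protein of brown fat, stood at 6.68 and 9.55 CPM in WT, 10.7 and 7.64 CPM in DD, and 5.92 and 3.23 CPM in DD + rDKK3, which lay lowest (-1.005 against DD, SE 0.344, adjusted p 1 by edgeR).

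Lipid droplet and lipolysis genes were expressed more widely, with 16 of 18 tested, and their medians were -0.02 and -0.04 in the first 2 comparisons. Dgat2, which makes triglyceride, stood at 43.7 and 45.1 CPM in WT, 95.5 and 68.8 CPM in DD, and 59.7 and 65.2 CPM in DD + rDKK3. All 4 null libraries lay above WT, with a log2 difference of 0.89 for DD (SE 0.187, adjusted p 0.442 by edgeR) and -0.40 for DD + rDKK3 against DD (SE 0.184). Lpin1, a phosphatidate phosphatase, was higher in DD + rDKK3 than in DD by 0.63 (SE 0.231, adjusted p 1 by edgeR). Hilpda, an inhibitor of triglyceride breakdown induced by low oxygen, stood at 186 and 98.3 CPM in WT, 99.0 and 118 CPM in DD, and 79.1 and 46.3 CPM in DD + rDKK3, a log2 difference of -1.18 from WT (SE 0.346, adjusted p 0.321 by edgeR).

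Genes of fatty acid uptake and activation (15 of 17 tested) had medians of 0.15 and -0.07. Slc27a1, a fatty acid transporter, stood at 43.8 and 48.6 CPM in WT, 37.6 and 32.3 CPM in DD, and 50.6 and 40.8 CPM in DD + rDKK3. Its DD libraries lay below the others (-0.40, SE 0.168, adjusted p 0.586 by edgeR). Zdhhc5, which palmitoylates CD36, was at 0.42 in DD against WT (SE 0.160, adjusted p 0.586 by edgeR).

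Partners of lipoprotein lipase and lipoprotein receptors (15 of 20 tested) had medians of 0.22 and -0.14. By edgeR 5 of 15 were higher in DD at an unadjusted p under 0.05, beside 4.27% of all genes. The 5 include Lrp1, named after its values were seen. It stood at 95.4 and 112 CPM in replicate 2 of DD and of DD + rDKK3, and at 15.2 to 33.7 CPM elsewhere. The part of fibroblasts, whose marker reads were highest there, was not tested, and nothing is read from this count. Pcsk6, a convertase that cleaves lipases and their inhibitors, stood at 14.4 and 18.3 CPM in WT, 33.8 and 25.5 CPM in DD, and 20.9 and 21.0 CPM in DD + rDKK3. All 4 null libraries lay above WT, and DD was highest (0.85, SE 0.200, adjusted p 0.525 by edgeR). Furin, a related convertase, was at 0.49 in DD (SE 0.160, adjusted p 0.586 by edgeR).

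PPAR receptors, partners and adipogenic factors (23 of 24 tested) had medians of 0.22 and 0.16, with 20 and 21 of 23 above 0, beside 51.7% and 49.5% of all genes. These genes were read from the same 2 libraries a group and are not independent of each other, so nothing is read from these counts. Klf4 stood at 21.8 and 14.4 CPM in WT, 27.4 and 53.3 CPM in DD, and 19.96 and 47.1 CPM in DD + rDKK3. It was highest in the libraries with the most fibroblast marker reads, whose part in its level was not tested (1.16 for DD against WT, SE 0.458, adjusted p 0.586 by edgeR). Ncoa2, a coactivator, was at 0.46 in DD against WT (SE 0.186, adjusted p 0.586 by edgeR).

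PPAR targets of fatty acid oxidation (20 of 24 tested) had medians of -0.07 and -0.08, with 0 higher and 1 lower at an unadjusted p under 0.05 in DD against WT. That gene was Hadh, an enzyme of mitochondrial beta-oxidation, at 160 and 154 CPM in WT, 116 and 123 CPM in DD, and 122 and 102 CPM in DD + rDKK3 (-0.39, SE 0.161, adjusted p 0.586 by edgeR for DD).

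**Figure D5:**
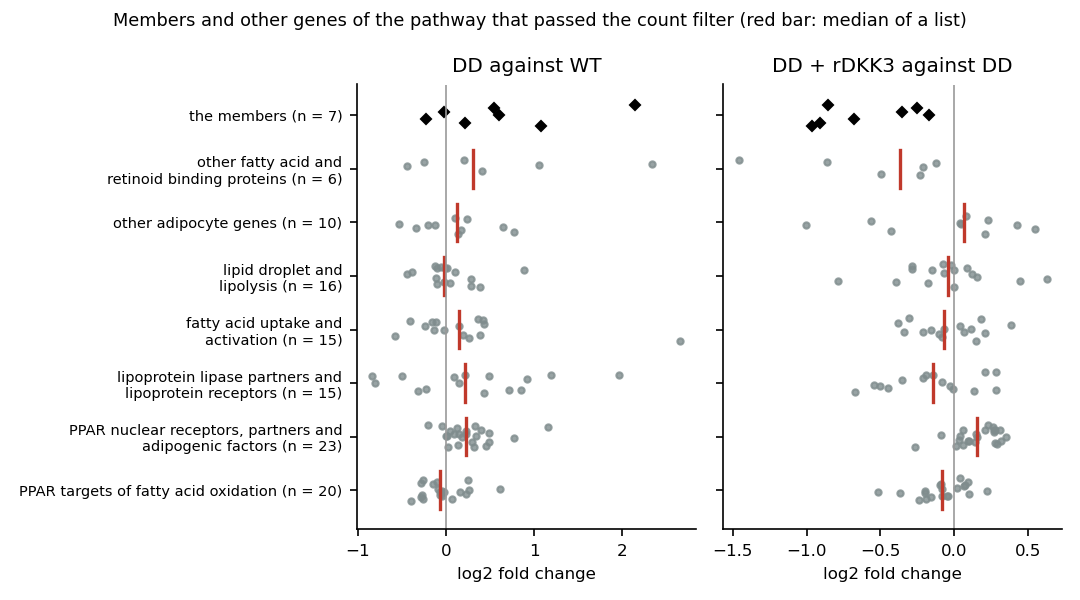
Fitted log2 fold change (horizontal axis) of the 7 members that passed the filter (black diamonds) and of the tested genes of 7 lists (grey points, 1 row per list, red bars the list medians) in DD against WT and DD + rDKK3 against DD. List medians lie between -0.07 and 0.30 in the first panel and between -0.36 and 0.16 in the second.

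Markers of cell types that carry the members were read beside them. The 9 adipocyte markers summed to between 17.1 and 21.7 CPM in every library, of which Lipe, hormone-sensitive lipase, made up 15.45 to 20.3 CPM, and between 0 and 5 of the 9 were at 0 counts in a library. Adipoq, Lep and Adrb3 were among those at or near 0. The 13 endothelial markers, led by Flt1, Eng and Kdr, summed to 163 and 242 CPM in WT, 179 and 265 CPM in DD, and 196 and 243 CPM in DD + rDKK3. None was at 0. Gpihbp1 anchors lipoprotein lipase on capillaries. It stood at 5.60 and 2.39 CPM in WT, 0.852 and 3.70 CPM in DD, and 1.80 and 1.29 CPM in DD + rDKK3. Against WT, DD + rDKK3 was lower without overlap for Gpihbp1, Egfl7 (-0.86, SE 0.307) and Esam (-0.55, SE 0.273), beside 27.1% of all genes. Egfl7 and Esam are named after their values were seen. In that comparison 9 of the 13 were higher, beside 51.6% of all genes. Eng was higher without overlap (0.48, SE 0.257), and 55.0% of all genes did not overlap in either direction. The list did not move in 1 direction, and nothing is read from the genes named. The 14 macrophage markers and the 14 fibroblast markers had their highest sums in replicate 2 of DD and of DD + rDKK3, and Fabp4 was highest in the first of these and lowest in the second. The 5 mesothelial markers summed to 8.55 and 8.43 CPM in WT, 14.9 and 34.9 CPM in DD, and 12.7 and 13.8 CPM in DD + rDKK3, highest in both DD libraries as Fabp5 was. Msln, mesothelin, made up most of it at 7.76 and 8.43 CPM, then 14.2 and 32.6 CPM, then 12.0 and 12.2 CPM, with log2 differences of 1.53 (SE 0.362) for DD against WT and -0.95 (SE 0.348) for DD + rDKK3 against DD. Wt1, the next most abundant, did not follow that order. It stood at 0.688 and 0 CPM in WT, 0.237 and 1.88 CPM in DD, and 0.475 and 1.45 CPM in DD + rDKK3. Between 0 and 4 of the 5 markers were at 0 counts in a library. The part of these cells in the levels of Fabp4, Fabp5, Cd36, Lpl and Plin2 was not tested.

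The shape of each abundant member over the 6 libraries was compared with all other genes tested by Pearson's r of log2 CPM. Among the closest to Fabp5 were Dusp6 (r = 0.998) and Galntl6 (0.991), and the closest to Fabp4 were Gm26586 (0.990), Abi1 (0.989) and Gm31718 (0.983). C9orf72 (0.994), Dhrs1 (0.991) and Ero1a (0.983) were closest to Plin2. Chm (0.984), Gm43545 (0.983) and St3gal6 (0.976) were closest to Cd36, and Mis12 (0.995), Epb41l1 (0.994) and Klc4 (0.993) to Lpl. Among the members, Fabp5 and Pparg had r = 0.858, and Lpl and Cidec 0.884, whereas Fabp4 and Fabp5 had 0.538. These r are the highest over all genes tested and rest on 6 libraries of 3 groups that share their depth and scaling, and they describe these libraries only.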

How the data were processed

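RNA from 6 cultures (WT, DD, DD + rDKK3; 2 each) was sequenced with stranded libraries. The authors aligned 50-base read pairs with STAR 2.7.9a to GRCm39 and the basic GENCODE M32 annotation and counted exon overlaps in union mode, strand-aware and without secondary alignments. The deposited values are raw counts per gene, summed over exons and not pooled over replicates. Reads that fit several copies equally well may be split or lost, and any effect of this on Fabp5 was not tested. The table has 57045 rows, of which 92 spike-in rows with 0 counts were left out.

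From these counts, genes were kept by filterByExpr (minimum count 10, minimum total 15; 14738 genes) and tested with edgeR 4.0.16 in R 4.3.3 (TMM, quasi-likelihood F-tests, two-sided, all 6 libraries in 1 model, Benjamini-Hochberg over 14738 genes, called under 0.05). The model had 3 residual and 4.634 prior degrees of freedom. Members below the filter were fitted without it. CPM used TMM-scaled totals; log2 CPM had a prior count of 2. Intervals are exact 95% Poisson intervals. Lengths, copies and sequences came from GRCm39 with GENCODE M39, with copies found by blastn 2.17.0, and gene positions from the files. DESeq2 1.42.0 and limma 3.58.1 (voom), other scalings and filters, equal depth, replicate blocks and libraries left out were alternatives. The procedure was tested on simulated counts.

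Members, lists and tests were chosen with earlier results of these data known. Named genes were the members, near-identical copies, Dkk3, per pathway list any gene called and otherwise up to 2 genes with the smallest p in DD against WT or DD + rDKK3 against DD and a mean log2 CPM of at least 0, per cell type list the 3 most abundant, and the 3 nearest patterns. Others are named for low counts, calls by DESeq2, a role beside a member or, where stated, after their values were seen. The results of 3 genes that this rule names are not reported here. The labels number the libraries 1 and 2 in each group. Treated Dkk3-null libraries carry the same name stem and number as the untreated ones. The labels give these libraries different ages, however, and name no shared animal or batch. The main model used no pairing.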

Additional observations from a re-analysis of the deposited data

How the results depend on the processing

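With 2 libraries a group, leaving 1 out changed the log2 differences of most members more than the choice of tool did. The number of genes called behaved otherwise. In DD against WT and in DD + rDKK3 against WT it changed more under DESeq2 than with 1 library left out. Members called in DD against WT rose from 0 to 1, Fabp5, under DESeq2, without the filter on low counts (adjusted p 5.11e-06) and with the replicate block within the Dkk3-null libraries (adjusted p 0.0342). After the data were seen, Fabp5 was also summed with its copies, and the adjusted p in DD against WT was then 0.130 by DESeq2, 0.630 by limma-voom, 0.088 with that replicate block and 0.00063 without the filter. Without the filter, 2 members were called in DD + rDKK3 against DD (Fabp5 at 0.0013 and Fabp4 at 0.00211) and 2 in DD + rDKK3 against WT (Fabp4 and Cd36). All genes called without the filter were 528, 73 and 788 in the 3 comparisons. The number of genes tested there is not given, so no share is stated. For pathway genes DESeq2 called 1 and 2 genes in DD against WT and DD + rDKK3 against WT, the block 1 and 1, and no filter 8, 1 and 8 in the 3 comparisons. Calls over all genes also rose under these settings, and nothing is read from the calls of members or pathway genes. Over all genes in DD against WT the 6 calls became 77 by DESeq2, 528 without the filter, 65 with that replicate block, 14 without both second Dkk3-null libraries, and 2 to 6 with 1 library left out. In DD + rDKK3 against DD the 0 calls became 5 by DESeq2 and 73 without the filter. In DD + rDKK3 against WT the 7 calls became 61, 3 by limma-voom, 788, 77 with the block, and 2 to 9 with 1 library left out. The cause of these differences was not tested. Same-numbered DD and DD + rDKK3 libraries deviated together (r 0.65), and those of WT and DD did not (r -0.387), nor did those of WT and DD + rDKK3 (r -0.247). A replicate block over all libraries called 0 members.

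Directions turned as follows on the log2 scale. Plin2 in DD against WT became 0.187 with library totals alone, 0.0326 without the filter, 0.011 without WT replicate 2, 0.212 without DD replicate 2 and 0.21 without both second Dkk3-null libraries. Fabp4 in DD against WT became -0.509 without DD replicate 2 and -0.512 without both. Cd36 and Plin1 in DD against WT became 0.304 and 0.652 without WT replicate 2. Fabp5 in DD + rDKK3 against WT became -0.173 without DD + rDKK3 replicate 2 and -0.173 without both, and with its copies summed -0.0962 by edgeR, -0.108 by DESeq2, -0.118 by limma-voom, -0.0483 without the filter and -0.121 with the block. With 1 library left out, Fabp4 in DD against WT ranged up to 0.718, Cd36 down to -0.595, Plin2 down to -0.271 and Plin1 down to -1.1, and Fabp5 in DD + rDKK3 against WT up to 0.361. Fabp5 ranged from 0.757 to 1.37 in DD against WT and from -1.26 to -0.637 in DD + rDKK3 against DD with 1 library left out. Scaling by library totals alone moved the median of all genes from 0.0164, -0.00282 and 0.0171 to 0.219, -0.0435 and 0.18. Depth limits Plin1, Cidec and Adipoq, whose counts ranged from 0 to 25.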
